A study of Mus musculus with 2 samples.

Results

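The cathepsins are the main proteases of lysosomes, and 10 of their genes (Ctsa, Ctsb, Ctsc, Ctsd, Ctsh, Ctsk, Ctsl, Ctss, Ctsw and Ctsz) are described here across the cells of B16 tumours. Members were the rows of the deposited gene list whose symbol was one of these names, and all 10 were found among 31053 genes. B16 is a mouse melanoma cell line, and the profiles came from tumours of C57BL/6 mice aged 8 weeks, sorted for live cells positive for CD45, a surface protein of leucocytes. The library labelled WT came from Mettl3 fl/fl Lyz2 +/+ mice, in which both Mettl3 alleles carry recombination sites and no Cre is present. The library labelled KO came from Mettl3 fl/fl Lyz2 cre/+ mice, in which a Cre gene sits in an allele of Lyz2 and is active in macrophages, monocytes and granulocytes. METTL3, the product of the floxed gene, is the methyltransferase that places N6-methyladenosine in RNA. Cells of several mice were pooled, with 1 library per genotype, so differences between mice could not be measured, no test between genotypes was possible, and every interval given covers counting error only.

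Cathepsins are made as inactive precursors, carried to lysosomes by mannose 6-phosphate receptors or sortilin, and activated there at acid pH. Most are cysteine proteases, while cathepsin D is an aspartic protease and cathepsin A a serine carboxypeptidase. Macrophages use them to digest engulfed material, dendritic cells and B cells use cathepsin S to trim the invariant chain that occupies MHC class II molecules, and tumour-associated macrophages are known to release cathepsins B and S into the tumour.

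By identifier and GRCm38 coordinates the family is scattered over 7 chromosomes. Ctsa (ENSMUSG00000017760) lies on chromosome 2 from 164832873 to 164841032 and Ctsz (ENSMUSG00000016256) on the same chromosome from 174427493 to 174439039. Ctsk (ENSMUSG00000028111), on chromosome 3 from 95499256 to 95509362, and Ctss (ENSMUSG00000038642), from 95526786 to 95556403, are neighbours on the plus strand. Ctsc (ENSMUSG00000030560) lies on chromosome 7 from 88278085 to 88310888 and Ctsd (ENSMUSG00000007891) on it from 142375911 to 142388038. Ctsh (ENSMUSG00000032359) lies on chromosome 9 from 90054152 to 90076089, Ctsl (ENSMUSG00000021477) on chromosome 13 from 64359337 to 64370890, Ctsb (ENSMUSG00000021939) on chromosome 14 from 63122462 to 63145923, and Ctsw (ENSMUSG00000024910) on chromosome 19 from 5465043 to 5468507.

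Some lysosomal genes carry the E-box core CACGTG near their start, the letters that transcription factors of the MITF and TFE family recognise, so the RefSeq promoters of the members (GRCm38.p6, 250 bases before to 50 after the start) were searched for it. Promoters were given for 7 members, and Ctsa, Ctsd and Ctsl held the core. Of 2 promoters given for Ctsa, chr2:164832622-164832921 held no match and chr2:164833523-164833822 held both of those shown. The core stood in 7.15% of all 32851 promoters of that length, and in those of 8.09% of the 27025 genes. Of 39 partner genes with a promoter given 8 held it, among them 2 of 12 lysosomal membrane proteins and hydrolases. The core reads the same on both strands. The matches are shown because factors of this family are among the partners counted further on. The core is in capitals, and its offset is the distance of its first base from the start, in bases.
Ctsd, offset -98, chr7:142387911-142387934, minus strand: cccgcgtctCACGTGacccgttga
Ctsd, offset -245, chr7:142388058-142388077, minus strand: tccccCACGTGacctgtatc
Ctsl, offset -236, chr13:64370742-64370765, minus strand: gttagaagcCACGTGctgatctaa
Ctsa, offset -12, chr2:164833752-164833775, plus strand: gcaaactgtCACGTGatgcagatg
Ctsa, offset 5, chr2:164833769-164833792, plus strand: gcagatgctCACGTGaccagagct
A match is a run of letters and not a measured binding site. The promoters given for Ctsc, Ctsk, Ctss and Ctsz held no such run in these windows.

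The deposited counts are unique molecular identifiers (UMIs), each standing for a captured transcript end, so levels of different genes were compared as UMIs per 1000000 UMIs of a cell class (CPM) without dividing by transcript length. After filtering, 5405 WT cells (median 4148 UMIs) and 7625 KO cells (median 3567 UMIs) remained, and 13 barcode sequences occurred in both libraries. Marker genes that include no cathepsin placed 3769 WT and 5437 KO cells in the 12 classes described here or among 9 and 13 fibroblast-like cells, which were too few to use. Of the other cells, 18.3% of all WT and 21.5% of all KO cells passed no gate, 9.21% and 4.68% had markers of more than a single lineage, and 147 and 192 cells with T cell markers fell in neither T-like class. Of 44 check markers kept out of the gates, 35 were highest in their own class, with 2 of 4 in macrophage-like, 2 of 4 in monocyte-like and 1 of 4 in cDC2-like cells. Macrophage-like cells numbered 1407 in WT and 1869 in KO, monocyte-like cells 763 and 2031, granulocyte-like cells 511 and 227, and melanoma-like cells 100 and 187. Mettl3 had 9.48 CPM in all WT cells and 10.4 CPM in all KO cells. Transcript ends need not fall in the part that Cre removes, so this value checks nothing about the labels. Lyz2, the gene that carries Cre, had 4442 CPM in WT and 2041 CPM in KO.

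Macrophage-like cells held the most cathepsin transcripts. Summed over the 10 members, the level was 12376 CPM in WT and 13962 CPM in KO, or 1.24% and 1.40% of all UMIs of the class. Monocyte-like cells followed with 5801 and 7135 CPM, plasmacytoid DC-like cells with 5088 and 5006 CPM, and granulocyte-like cells with 4079.6 and 5288.5 CPM. The plasmacytoid DC-like value lay inside the range of the granulocyte-like libraries. cDC2-like cells, a class of conventional dendritic cells, held 3139.8 and 3414 CPM, mature DC-like cells 2135 and 2097 CPM, and cDC1-like cells 1379 and 1684 CPM, overlapping with the melanoma-like 1335 and 1544 CPM. Among lymphocytes, the NK-like class held 2502 and 2004 CPM, the CD8 T-like class 1941.5 and 1824 CPM, CD4 T-like cells 1700.1 and 2989 CPM and B-like cells 1292 and 1132 CPM. Within a class the cells varied widely. Among macrophage-like cells of at least 1000 UMIs, the median cell had 116 cathepsin UMIs per 10000 in WT and 132 in KO, 10% of cells fell under 59.7 and 67.4, and 10% exceeded 199 and 234.

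**Figure D1:**
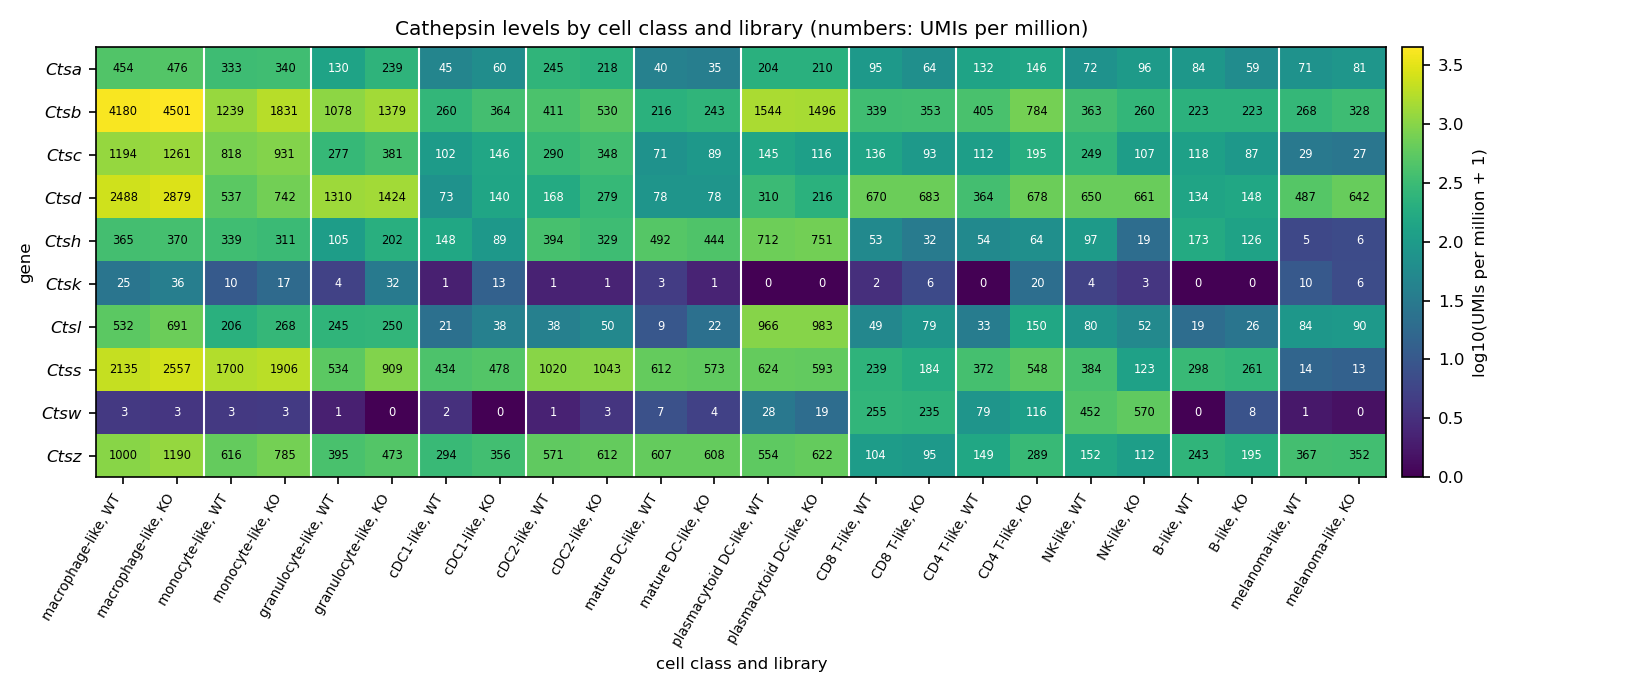
Levels of the 10 cathepsin genes (rows) in 12 cell classes of the WT and KO libraries (columns), as colour on a log10 scale and as printed CPM. Ctsb leads in macrophage-like cells at 4179.6 and 4501 CPM, Ctsl is highest in plasmacytoid DC-like cells at 966 and 983 CPM, and Ctsw stands out in NK-like cells at 452 and 570 CPM.

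Ctsb, a cysteine protease that cuts both within and at the end of proteins, had 4179.6 CPM (95% counting interval 4147 to 4212) in WT and 4501 CPM (4469 to 4533) in KO macrophage-like cells. The next classes, monocyte-like (1239 and 1831 CPM) and plasmacytoid DC-like cells (1544.5 and 1496 CPM), overlapped each other between libraries. With every cell thinned to 1000 UMIs, which left out 35 WT and 42 KO cells, a Ctsb UMI was found in 91.1% and 93.3% of macrophage-like cells, against 99.4% and 99.6% at full depth.

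Ctsd, the aspartic protease, had 2488 CPM in WT and 2879 CPM in KO macrophage-like cells, the highest of all classes. Granulocyte-like cells came next with 1309.9 and 1424 CPM. CD8 T-like cells had 670 and 683 CPM and NK-like cells 649.8 and 661 CPM, ahead of every dendritic class, of which plasmacytoid DC-like cells had 310 and 216 CPM, cDC2-like cells 168 and 279 CPM, cDC1-like cells 72.6 and 139.8 CPM and mature DC-like cells 78.2 CPM in each library. A Ctsd UMI was found in 49.4% and 51.2% of CD8 T-like cells thinned to 1000 UMIs, against 81.9% and 85.0% at full depth.

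Ctss, the endopeptidase that trims the invariant chain in dendritic cells and macrophages, was spread over the antigen-presenting classes. It had 2135 and 2557 CPM in macrophage-like, 1700 and 1906 CPM in monocyte-like, and 1019.9 and 1043 CPM in cDC2-like cells, and these ranges did not overlap. Melanoma-like cells had 14.5 and 12.5 CPM.

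Ctsl, an endopeptidase that trims the invariant chain in the thymic epithelium, had its highest level in plasmacytoid DC-like cells, at 966 CPM (855 to 1088) in WT and 983 CPM (876 to 1099.9) in KO. Macrophage-like cells had 532 and 691 CPM. Thinned to 1000 UMIs, 57.9% and 68.1% of plasmacytoid DC-like cells and 32.1% and 40.5% of macrophage-like cells had a Ctsl UMI, against 92.2% and 92.6% and 80.3% and 79.9% at full depth. The conventional dendritic classes were far lower, with 38.1 and 50.5 CPM in cDC2-like, 21.2 and 38.1 CPM in cDC1-like, and 8.69 and 21.6 CPM in mature DC-like cells, the last from 5 and 16 UMIs. Among dendritic classes, Ctss and Ctsl thus had different leaders in both libraries.

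Ctsk, the collagen-cutting protease best known from osteoclasts, was low throughout. It had 25.1 CPM in WT and 35.5 CPM in KO macrophage-like cells and no UMI in plasmacytoid DC-like or B-like cells of either library. The WT value rested on a single cell with 194 of the 381 UMIs, and was 12.4 CPM without it.

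The exopeptidases, which remove residues from protein ends, followed other orders. Ctsc, the dipeptidase that activates granule proteases, had 1194 and 1261 CPM in macrophage-like, 818 and 931 CPM in monocyte-like, and 277 and 381 CPM in granulocyte-like cells. Ctsh, an aminopeptidase, was highest in plasmacytoid DC-like cells at 712 and 751 CPM, followed by mature DC-like cells at 492 and 444 CPM, with macrophage-like (365 and 369.6 CPM) and cDC2-like cells (394.5 and 329 CPM) overlapping behind them. Ctsz, a carboxypeptidase, had 999.5 and 1190.5 CPM in macrophage-like cells, ahead of monocyte-like cells at 616 and 785 CPM. Mature DC-like (607 and 608 CPM) and cDC2-like cells (571 and 612 CPM) lay below the monocyte-like range, and plasmacytoid DC-like cells (554 and 622 CPM) overlapped with all of these but the macrophage-like class. Ctsa, the carboxypeptidase that also protects beta-galactosidase and neuraminidase in the lysosome, had 454 and 475.5 CPM in macrophage-like and 333 and 339.8 CPM in monocyte-like cells.

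Ctsw, a cathepsin of cytotoxic lymphocytes, followed a pattern of its own. NK-like cells led with 452 CPM (370.0 to 545.5) in WT and 570 CPM (495 to 653) in KO. The CD8 T-like class had 255 and 235 CPM, and the CD4 T-like class 78.6 and 116 CPM. At 1000 UMIs per cell, a Ctsw UMI was found in 38.7% and 41.1% of NK-like and 28.1% and 30.1% of CD8 T-like cells, against 0.364% and 0.274% of macrophage-like cells, which should lack it. At full depth these shares were 73.7% and 63.5%, 65.0% and 65.9%, and 2.70% and 1.93%, with median depths of 2002.5 and 1679 UMIs in NK-like, 3036 and 3166.5 in CD8 T-like, and 9020 and 7267 in macrophage-like cells. Thinning left out 1 and 9 NK-like and 7 and 15 CD8 T-like cells.

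In droplet data free RNA can reach every droplet, so 3 macrophage transcripts that are not cathepsins (Pf4, Trem2 and Apoe) served as a yardstick for the other classes. In CD8 T-like cells they stood at 3.88% to 9.07% of their macrophage-like level in WT and at 3.25% to 5.97% in KO. Ctsb there stood at 8.11%, inside the WT range, and at 7.85%, above the KO range. Ctsd stood at 26.9% and 23.7% in CD8 T-like cells, and at 26.1% and 22.95% in NK-like cells, where the yardstick was 4.74% to 7.78% and 2.98% to 6.93%. Ctsd of both cytotoxic classes thus lay above the yardstick in each library. In B-like cells Ctsd stood at 5.41% and 5.16%, inside the WT range and just above the KO range of a yardstick of 3.01% to 9.03% and 1.72% to 5.12%. In mature DC-like cells Ctsl (1.63% and 3.13%) and Ctsd (3.14% and 2.72%) stood close to the yardstick of 0.934% to 2.88% and 2.30% to 2.62%, while Ctsh stood at 135% and 120%.

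The make-up of the family varied from class to class. Ctsb gave 33.8% and 32.2% of the cathepsin UMIs of macrophage-like cells and Ctsd 20.1% and 20.6%. In monocyte-like cells Ctss led with 29.3% and 26.7%, and the Ctsb share was 21.4% in WT and 25.7% in KO. Mature DC-like cells drew on Ctss (28.7% and 27.3%), Ctsz (28.4% and 29.0%) and Ctsh (23.1% and 21.2%). Plasmacytoid DC-like cells combined Ctsb (30.4% and 29.9%), Ctsl (18.99% and 19.6%) and Ctsh (14.0% and 15.0%). Melanoma-like cells were led by Ctsd (36.5% and 41.6%) and Ctsz (27.5% and 22.8%).

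**Figure D2:**
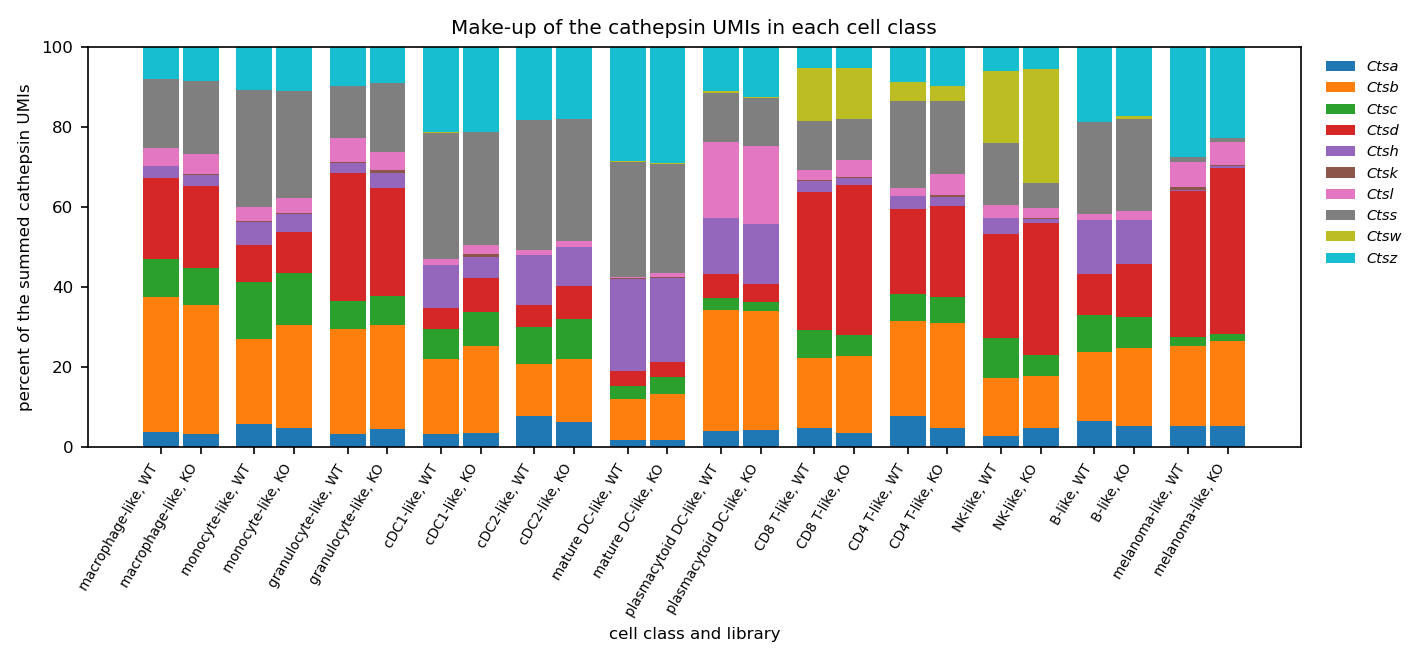
Each bar splits the summed cathepsin UMIs of a cell class and library into the percent from each gene. Classes differ, as with Ctsl at 18.99% and 19.6% in plasmacytoid DC-like cells against 0.407% and 1.03% in mature DC-like cells, and the WT and KO bars differ for Ctsw in NK-like cells (18.0% and 28.5%).

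The comparison of KO with WT macrophage-like cells asks how cathepsin transcripts differ where Cre is active. All 8 members at 50 CPM or more had a log2 ratio of KO over WT above 0, and Ctsl alone passed a log2 ratio of 0.32 in either direction, the threshold used throughout and called the fold here. Of genes tested, 5.34% of 2827 were past the fold upwards and 1.95% downwards. No member was lower past the fold. The median log2 ratio of these members was 0.16, and that of all genes tested was 0.00 (0.002785). Summed over the family the log2 ratio was 0.17 (0.17 to 0.18), a ratio of 1.13. Ctsl had 8066 UMIs in WT and 11418 in KO, a log2 ratio of 0.38 (0.34 to 0.42) that exceeded 96.1% of all genes. With a further marker required of each cell it was 0.29, under the fold. Ctss followed with 0.26 (0.24 to 0.28), Ctsz with 0.25 (0.22 to 0.28) and Ctsd with 0.21 (0.19 to 0.23), exceeding 92.0%, 91.4% and 88.4% of genes. Ctsb at 0.11 (0.09 to 0.12), Ctsc at 0.08 and Ctsa at 0.07 had counting intervals above 0 but small differences, and Ctsh at 0.02 had an interval from -0.03 to 0.07. Ctsk, under 50 CPM, had a log2 ratio of 0.50, which became 1.42 (1.18 to 1.67) without the cell of each library that held most of its UMIs.

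**Figure D3:**
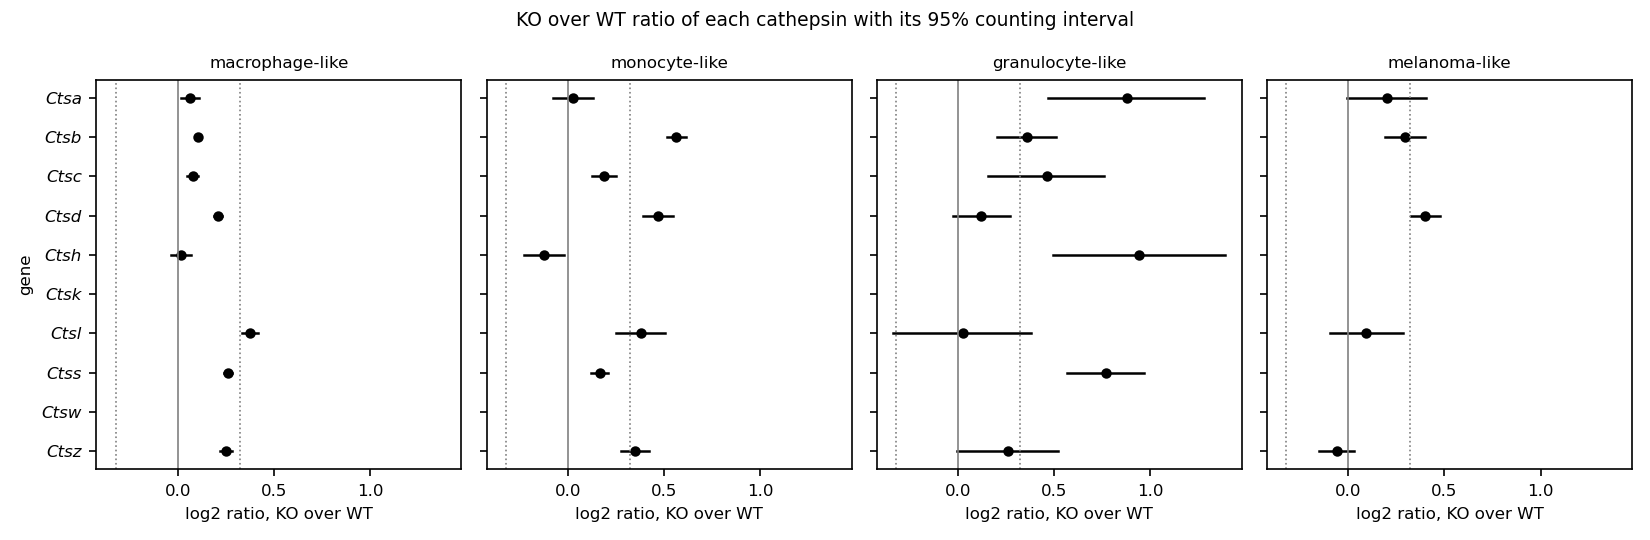
Log2 ratio of KO over WT (points) with 95% counting intervals (lines) for members at 50 CPM or more in 4 classes, with dotted lines at a log2 ratio of 0.32 either way. In macrophage-like cells Ctsl at 0.38 is past the line, in monocyte-like cells Ctsb (0.56), Ctsd (0.47), Ctsl (0.38) and Ctsz (0.35) are, and the intervals widen in granulocyte-like cells.

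**Figure D4:**
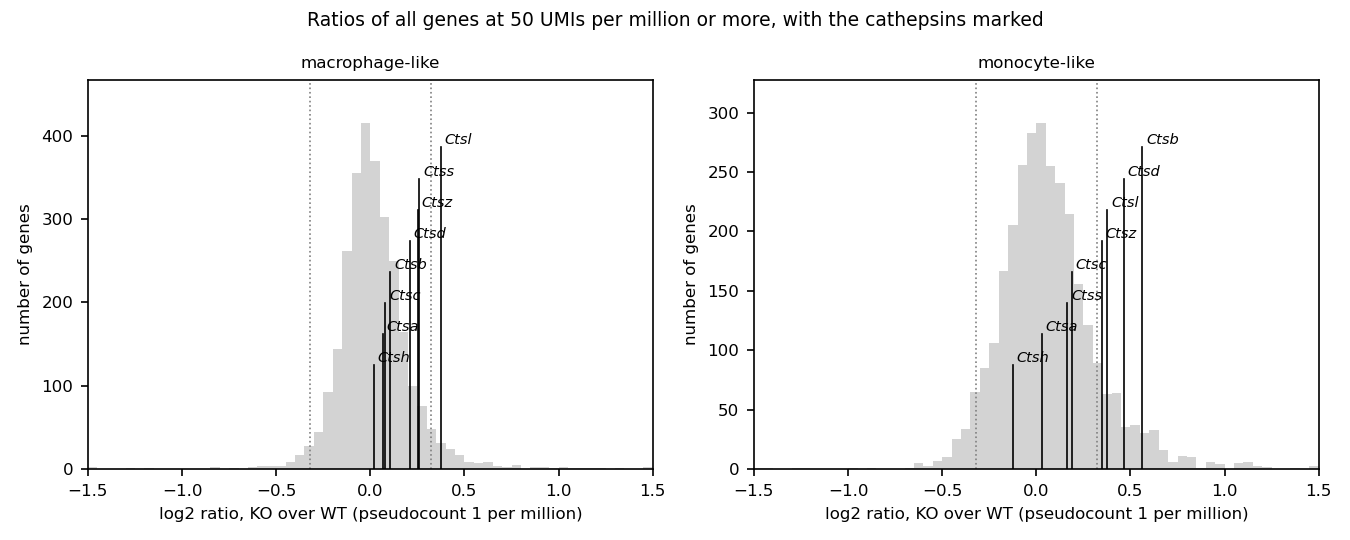
Number of genes by log2 ratio of KO over WT in macrophage-like (left) and monocyte-like cells (right), for genes at 50 CPM or more, with each cathepsin marked by a line at its value and dotted lines at a log2 ratio of 0.32 either way. The cathepsins lie to the right of the centre in macrophage-like cells, while in monocyte-like cells Ctsh at -0.12 lies to the left and Ctsb at 0.56 far to the right.

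Cells with Ly6c2, a gene of recently arrived monocytes, made up 24.0% of macrophage-like cells in WT and 36.8% in KO. Ctsd was lower in cells with Ly6c2 than without, at -0.50 and -0.52 on the log2 scale, and so was Ctsb at -0.37 and -0.23. The family's KO over WT log2 ratio was 0.21 in cells with Ly6c2 and 0.20 in cells without. Cells were also split by Arg1, the arginase gene. Ctsl had a log2 ratio of 0.10 (0.04 to 0.16) in Arg1-positive cells (2 or more Arg1 UMIs) and 0.33 (0.27 to 0.40) in Arg1-negative cells. Its level was 1231.5 and 1321 CPM in the former and 319 and 402 CPM in the latter. Arg1-positive cells made up 19.5% of the class in WT and 27.0% in KO. The part of these shares in the ratio of the class was not tested.

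In monocyte-like cells Ctsb, Ctsd, Ctsl and Ctsz, 4 of 8 members, were past the fold upwards and none downwards, beside 13% of 2962 genes upwards and 4.19% downwards. With the median of all genes set to 0, Ctsb, Ctsd and Ctsl were past the fold, and the share of calls that were higher went from 75.7% to 64.1% over all genes. Ctsb had 1239 CPM (1201 to 1277) in WT and 1831 CPM (1799.7 to 1862) in KO, a log2 ratio of 0.56 (0.51 to 0.61) that exceeded 95.6% of genes. Ctsd went from 537 to 742 CPM, a log2 ratio of 0.47 (0.39 to 0.54), Ctsl from 206 to 268 CPM (0.38, 0.25 to 0.51) and Ctsz from 616 to 785 CPM (0.35, 0.28 to 0.42). Ctsc at 0.19 and Ctss at 0.17 had intervals above 0. Ctsa at 0.03 did not, and Ctsh had a log2 ratio of -0.12 (-0.23 to -0.02). The family sum had a log2 ratio of 0.30 (0.27 to 0.32). The median of the 8 members was 0.27, beside 0.04 for all genes. Against the yardstick of Pf4, Trem2 and Apoe, 6.90% to 21.7% in WT and 8.66% to 21.35% in KO, Ctsd stood inside it in WT at 21.6% of its macrophage-like level and above it in KO at 25.8%, while Ctsb (29.6% and 40.7%), Ctsl (38.7% and 38.75%) and Ctsz (61.7% and 66.0%) stood above it in both. In this class 68.3% of WT and 62.0% of KO cells had 1 or 2 macrophage markers. The yardstick transcripts could therefore be their own, and it cannot bound free RNA here. Whether the KO over WT ratios of this class differ from those of macrophage-like cells was not tested.

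The monocyte-like class was divided by markers of neighbouring cell states. Cells without any macrophage marker made up 31.7% of the class in WT and 37.96% in KO, and among them Ctsb had a log2 ratio of 0.38 (0.28 to 0.48), Ctsl 0.43 (0.13 to 0.73), Ctsz 0.34 (0.20 to 0.48) and Ctsd 0.22 (0.05 to 0.39). Among cells with 1 or 2 macrophage markers the values were 0.65 for Ctsb, 0.57 for Ctsd, 0.41 for Ctsl and 0.37 for Ctsz. By MHC class II level, Ctsb had a log2 ratio of 0.50 in high and 0.62 in low cells and Ctsd 0.37 and 0.59, while Ctsl had 0.15 (-0.02 to 0.33) in high and 0.61 (0.42 to 0.80) in low cells. With classes rebuilt from Leiden clusters, which placed 1391 WT and 3283 KO cells in the monocyte-like class, Ctsb at 0.42 alone was past the fold, while Ctsd was 0.32, just under it, Ctsz 0.26 and Ctsl 0.11.

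In granulocyte-like cells Ctsa, Ctsb, Ctsc, Ctsh and Ctss, 5 of 8 members, were past the fold upwards and none downwards, beside 34.3% of 2726 genes upwards and 15.6% downwards. The median of all genes itself lay at 0.14 there. With that median set to 0, Ctsa, Ctsh and Ctss were past the fold, beside 23.3% of genes upwards and 23.8% downwards, and the share of calls that were higher went from 68.7% to 49.5%. Ctss had 534 and 909 CPM (log2 0.77, 0.57 to 0.97), Ctsa 130 and 239 CPM (0.88, 0.47 to 1.28) and Ctsh 105 and 202 CPM (0.94, 0.49 to 1.39). Ctsd, the leading member of the class, had 1309.9 and 1424 CPM (0.12, -0.03 to 0.27). With equal weight for each cell the log2 ratios of Ctsb and Ctsc were -0.00 (-0.003125) and -0.01. With classes rebuilt from Leiden clusters no member of the class was past the fold, with Ctsa and Ctss at 0.29, Ctsh at 0.20 and Ctsb at 0.02. Granulocyte check markers were lower in KO, at 4735 CPM summed in WT and 3108 CPM in KO, while the log2 ratios of the macrophage check markers ran from -1.38 for Pf4 and -0.93 for Trem2 to 0.20 for Cd63 and 1.26 for Fcgr1. Of the monocyte check markers Ifitm6 had -0.44, Vcan -0.02 and F13a1 0.36, and Ly6c1 was at 0 in both libraries. The gate markers C1qa, Mrc1, Ccr2 and Ly6c2 had -0.00 (-0.004658), 0.36, 0.80 and 1.12. All 6 genes of the invariant chain pathway were past the fold upwards, from 0.68 for H2-Ab1 to 1.14 for H2-DMa, with Cd74, the invariant chain, at 0.80. Their part in the member ratios was not tested.

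The dendritic classes were small, and several of their ratios rested on single cells. In cDC1-like cells, 77 in WT and 55 in KO, Ctsa, Ctsb, Ctsc and Ctsd were past the fold upwards and Ctsh downwards, 4 and 1 of 7 members, beside 18.1% of 2646 genes upwards and 12.4% downwards. Ctsa reached 50 CPM in KO alone, at 60.4 against 44.7 CPM in WT, and its interval ran from -0.25 to 1.11. A single KO cell held 50 of the 88 Ctsd UMIs, and the Ctsd log2 ratio of 0.95 was -0.00 (-0.0007715) without the top cell of each library, where that of Ctsb went from 0.48 to 0.14 and that of Ctsa from 0.43 to 0.17. With Leiden clusters the values were -0.26 for Ctsd, -0.36 for Ctsb and -0.00 (-0.002663) for Ctsa. Ctsh had 148 and 89.0 CPM, a log2 ratio of -0.73 (-1.21 to -0.27) that was -0.81 without the top cells. The macrophage check markers of the class ran from -1.37 for Trem2 and -0.53 for Pf4 to 0.25 (0.2451) for Cd63 and 0.96 for Fcgr1, and of the monocyte ones Vcan had -2.30, F13a1 -0.77 and Ifitm6 -0.49, with the gate marker Ly6c2 at 1.16. Of the melanoma check markers Gpnmb had 2.24 and 122 CPM and Mitf 2.24 and 9.53 CPM, while Sox10 had 0 and 1.59 CPM and Slc45a2 no UMI. Their part was not tested. In cDC2-like cells Ctsb (0.37), Ctsd (0.74, 0.42 to 1.06) and Ctsl (0.41) were past the fold upwards, 3 of 8 members, and none downwards, beside 17% of 2915 genes upwards and 13.4% downwards. Ctsl reached 50 CPM in KO alone, at 50.5 against 38.1 CPM in WT, and its interval ran from -0.32 to 1.15. Without the top cells Ctsd was 0.73, Ctsb 0.34 and Ctsl -0.26, since a KO cell held 17 of its 38 UMIs. With Leiden clusters Ctsd was 0.08 and Ctsb 0.13. Of the monocyte check markers of the class, Vcan had 19.0 and 58.5 CPM (1.62), F13a1 0.30 and Ifitm6 -0.08, and the gate marker Ly6c2 had 0.65. The macrophage ones ran from -2.52 for Trem2 and -0.59 for Cd63 to -0.11 for Pf4 and 0.29 for Fcgr1. Their part was not tested.

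No member of mature DC-like cells was past the fold, of 6 at 50 CPM or more, beside 19.2% of 2478 genes upwards and 12.2% downwards. The split of calls over all genes went from 61.2% to 49.9% higher with the median set to 0. In plasmacytoid DC-like cells Ctsd was past the fold downwards and no member upwards, of 8, beside 22.1% of 3407 genes downwards and 27.1% upwards. With the median of all genes set to 0, Ctsc (-0.32 before) was past it downwards as well. The Ctsd log2 ratio of -0.52 (-1.003 to -0.05) was -0.17 (-0.69 to 0.36) without the top cells, as a WT cell held 24 of the 88 UMIs. Of the macrophage check markers of the class, Cd63 had -3.45, Fcgr1 -1.71, Trem2 -0.87 and Pf4 -0.59. Of the monocyte ones F13a1 had -1.87, Vcan had 28.2 and 0 CPM, and Ifitm6 and Ly6c1 no UMI. The gate markers Mrc1 and C1qa had -4.94 and -0.76, and Ly6c2 had 0.27. Their part was not tested. The Ctsl difference in this class, its highest, was 0.03 (-0.22 to 0.27).

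Melanoma-like cells, gated on melanocyte genes, were present despite the CD45 sort, and the B16 line carries no Lyz2-driven Cre. Ctsd was past the fold upwards with 487 CPM (466 to 508) in WT and 642 CPM (623 to 661) in KO, a log2 ratio of 0.40 (0.32 to 0.47) that was 0.15 with each cell thinned to 1000 UMIs. It was 1 of 5 members at 50 CPM or more, and none was past the fold downwards, beside 8.44% of 2915 genes upwards and 12.2% downwards. Ctsb had 0.29 (0.19 to 0.40), and both were past the fold with the median of all genes set to 0, when calls went from 40.8% to 50.9% higher. Ctsz had -0.06 (-0.15 to 0.03). Ctss, a gene of leucocytes, stood at 0.678% and 0.490% of its macrophage-like level, close to Pf4 (0.585% and 0.602%) and Trem2 (0.501% and 1.13%), while Apoe stood at 15.7% and 18.9%.

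In CD8 T-like cells, 331 in WT and 314 in KO, Ctsl was past the fold upwards and Ctsa, Ctsc, Ctsh and Ctss downwards, 1 and 4 of 9 members, beside 10.6% of 2753 genes upwards and 7.66% downwards. With the median of all genes set to 0 the calls over all genes went from 58.1% to 43.3% higher. Ctsl had a log2 ratio of 0.69 (0.31 to 1.08), which was -0.11 with Leiden clusters. It reached 50 CPM in KO alone, at 78.7 against 48.7 CPM in WT. Ctsh did so in WT alone, at 53.0 against 32.4 CPM in KO. Ctsa had -0.56 (-0.90 to -0.22), Ctsc -0.55 (-0.83 to -0.27), Ctsh -0.71 (-1.19 to -0.24) and Ctss -0.38 (-0.58 to -0.17). With doublets kept Ctsc was 0.085 and Ctss 0.10, and with each cell thinned to 1000 UMIs Ctsh was 0.38. Ctsd, the leading member of the class, had 0.03 (-0.09 to 0.14), Ctsw -0.12 (-0.31 to 0.07), Ctsb 0.06 and Ctsz -0.13. In WT all members but Ctsb (8.11%) and Ctsk (8.52%) stood above the yardstick, and in KO all 10 did. Ctsk rested on 4 and 11 UMIs, and Ctsw had 3.03 and 2.84 CPM in macrophage-like cells, so their places say little. The macrophage check markers ran from -0.86 for Pf4 and -0.29 for Trem2 to 0.11 for Cd63 and 0.24 for Fcgr1, and the gate markers C1qa and Mrc1 had 0.53 and -0.53. Of the monocyte check markers Vcan had -0.09, Ifitm6 -0.06 and F13a1 0.02. Their part in the member ratios was not tested.

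In NK-like cells, 76 in WT and 167 in KO, Ctsa and Ctsw were past the fold upwards and Ctsb, Ctsc, Ctsh, Ctsl, Ctss and Ctsz downwards, 2 and 6 of 9 members, beside 27.8% of 3387 genes upwards and 26% downwards. The intervals of Ctsc (-1.22, -1.84 to -0.61), Ctss (-1.64, -2.19 to -1.11), Ctsh (-2.34, -3.80 to -1.07, from 23 and 7 UMIs) and Ctsb (-0.48, -0.91 to -0.04) lay below 0. Those of Ctsl (-0.62), Ctsz (-0.43), Ctsa (0.42) and Ctsw (0.34, -0.01 to 0.69) included 0, as did that of Ctsd (0.02, -0.27 to 0.33). Ctsh reached 50 CPM in WT alone, at 97.0 against 19.2 CPM in KO. With doublets kept Ctsb was 0.13, with each cell thinned to 1000 UMIs Ctsc was -0.00 (-0.004573), and with Leiden clusters Ctss was -0.01 (-0.00932). In KO, Ctsb (5.79%), Ctsh (5.19%) and Ctss (4.83%) stood inside the yardstick of this class and the other 7 members above it, while in WT all 10 stood above it. Ctsk rested on 1 UMI in each library, and Ctsw had 3.03 and 2.84 CPM in macrophage-like cells, so their places say little. The macrophage check markers ran from -1.98 for Fcgr1 and -0.94 for Trem2 to 0.29 for Pf4 and 0.52 for Cd63, and C1qa and Mrc1 had 0.38 and -1.04. The monocyte check markers were lower in KO, with Vcan at 92.8 and 10.96 CPM (-3.08), F13a1 at 54.9 and 27.4 CPM and Ifitm6 at 16.9 and 0 CPM, while Ly6c1 had no UMI. Their part was not tested.

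In CD4 T-like cells, 65 in WT and 97 in KO, 7 of 9 members (Ctsb, Ctsc, Ctsd, Ctsl, Ctss, Ctsw and Ctsz) were past the fold upwards and none downwards, beside 24% of 3343 genes upwards and 24.9% downwards. The middle 90% of all genes ran from -0.88 to 0.98, and of these members Ctsl alone lay outside it. The summed level had a log2 ratio of 0.81 (0.65 to 0.98), which was 0.41 with each cell thinned to 1000 UMIs. Among cells of at least 1000 UMIs, the median cell had 11.5 cathepsin UMIs per 10000 in WT and 13.7 in KO. The top KO cell of Ctsb held 69 of its 318 UMIs and that of Ctsl 21 of 61. Without the top cell of each library Ctsb had 0.92 and Ctsl 1.77. Ctsb had 405 and 784 CPM (0.95, 0.62 to 1.29), Ctsd 364 and 678 CPM (0.90, 0.55 to 1.26) and Ctsz 149 and 289 CPM (0.95, 0.40 to 1.54). Ctsl had 8 and 61 UMIs (2.19), and 0.69 when thinned. It reached 50 CPM in KO alone, at 150 against 33.1 CPM in WT. Ctsc (0.80) was -1.42 when thinned and -0.15 with a further marker, Ctss (0.56) was 0.04 and Ctsw (0.56, -0.24 to 1.41) -0.04 (-0.04499) with a further marker. The yardstick ran from 4.47% to 8.89% in WT and from 6.38% to 10.1% in KO, and Ctsb stood at 9.70% and 17.4%. Ctsl stood inside it in WT at 6.22% and above it in KO at 21.8%. The macrophage check markers ran from -1.03 for Cd63 and -0.75 for Trem2 to 0.91 for Pf4 and 1.254 for Fcgr1, and C1qa and Mrc1 had -0.03 and -0.88. Of the monocyte check markers Vcan had -0.75, F13a1 0.53 and Ifitm6 0.58. Their part was not tested.

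Partners of the cathepsins were counted by the same fold. In macrophage-like cells none of the 35 partner genes at 50 CPM or more, from 6 lists, was past it, beside the 5.34% of all genes upwards and 1.95% downwards. Among inhibitors and processing enzymes the highest was Cstb, the cytosolic inhibitor stefin B, at 0.18, and the lowest Cst3, the secreted inhibitor cystatin C, at -0.12. Among sorting proteins and partners they were Psap, the saposin precursor, at 0.28 and M6pr, a mannose 6-phosphate receptor, at -0.07. Among 16 lysosomal membrane proteins and hydrolases they were Npc2, a cholesterol carrier, at 0.31 and Cd63 at -0.25. Of the proton pump subunits Atp6v1b2 had 0.27 and Atp6v0d1 -0.03, of the invariant chain pathway H2-Aa had 0.22 and H2-DMa 0.08, and Tfe3, the MITF-family factor at this level, had 0.12. The list medians were 0.03, 0.12, 0.03, 0.01, 0.18 and 0.12 in that order, and the cathepsins' was 0.16.

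In monocyte-like cells 6 of 34 partner genes were past the fold upwards and 4 downwards, beside the 13% and 4.19% of all genes. Lgmn, the legumain that cleaves cathepsin precursors, went from 469.5 to 671 CPM (0.52) and Cstb from 778 to 1033.5 CPM (0.41), while Cst3 had -0.24. Psap had 0.33 and Neu1 0.13. Npc2 had 0.41. Atp6v1b2 had 0.40, Atp6v0d1 0.16 and Tfe3 0.15. The invariant chain pathway went the other way, with 3 of 6 genes past the fold downwards, from H2-Eb1, an MHC class II chain, at -0.58 to H2-DMa at -0.04 and a list median of -0.34. In granulocyte-like cells 16 of 36 partner genes were past the fold upwards and 6 downwards, beside 34.3% and 15.6% of all genes. Lgmn had 1.17 there and Stfa1, a stefin of neutrophils, -1.68. In melanoma-like cells 2 of 25 partner genes were past the fold upwards and none downwards, beside 8.44% and 12.2% of all genes. They were Mitf, the melanocyte factor of the MITF family, with 257 and 400.2 CPM (0.64, 0.54 to 0.74), and Psap at 0.33. Ctsd had 0.40 there, and a link between these genes was not tested.

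Genes with level profiles most like each member were ranked over 24 profiles, the 12 classes in both libraries, among 6180 genes. These points share libraries and depth, so the correlations are a description. Ctsw was nearest to Nkg7, a gene of cytotoxic granules (Pearson's r = 0.92), Ctss to Cyba, an oxidase subunit (0.95), Ctsh to Ly86 (0.94), Ctsc to the Fc receptor gene Fcgr1 (0.93), and Ctsb to Grn, the progranulin gene (0.91). Ctsa was nearest to the proton pump gene Atp6ap1 (0.90), Ctsl to Npc1, a lysosomal cholesterol transporter (0.88), Ctsz to P2rx4 (0.88), Ctsd to Tmem120a (0.87) and Ctsk to Pdpn (0.87). Among the members themselves the profiles of Ctsb and Ctsl (0.89), Ctsa and Ctsb (0.88), Ctsh and Ctss (0.87) and Ctsc and Ctss (0.86) were most alike, and those of Ctsw and Ctsz least (-0.66). A further 13 genes with a Cts symbol were measured, of which 9 had no UMI and Ctso alone reached 50 CPM, at 137.5 and 187 CPM in plasmacytoid DC-like cells.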

How the data were processed

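The deposited matrix, with a table that gives the library of each barcode, held raw counts of UMIs per gene and cell barcode that the authors made with Cell Ranger 4.0.0 on mm10 and did not normalize. Barcodes numbered 5895 with 45963969 UMIs in WT and 8446 with 54052317 in KO. The limits of the study were used, with at least 200 genes and at most 10% mitochondrial UMIs, which kept 5661 and 8157. Doublets were scored by simulation with scanpy 1.11.5. Its automatic threshold marked 1 cell in each library and had not worked, so the top-scoring cells were removed at 0.8% per 1000 cells (256 and 532).

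Each cell was gated by distinct marker genes with a UMI, for example 4 of 7 macrophage markers including C1qa and Mrc1. Monocyte-like cells needed 2 of Ly6c2, Ccr2, Chil3, Plac8 and Ms4a4c, with Csf1r or Ms4a6c and at most 2 macrophage markers. Cells with markers of several lineages were set aside as mixed. The thresholds were set after marker counts had been seen. Members, gene lists and gates were chosen with earlier results of these data known, and the top-cell and Ly6c2 splits were added after values had been seen. All 10 members are named, with the extreme genes of each partner list, chosen after their values were seen, and the gene of most similar profile by Pearson's r of log2(CPM + 1).

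UMIs were summed per class and library and divided by the class total (CPM). Intervals at 95% were exact Poisson for CPM, conditional binomial for log2 ratios and Clopper-Pearson for shares of cells, computed with scipy 1.17.1, and they cover counting error only. Ratios needed 50 cells per library and levels 20. Background shares past the fold came from genes that reached 50 CPM in a library, leaving out haemoglobin, ribosomal protein and mitochondrial genes, with a pseudocount of 1 CPM. Scripts were tested on simulated data. No test between genotypes was made, since each has 1 library. Alternatives were other filters, doublets kept, equal weight per cell, thinning to 1000 UMIs, stricter gates, Leiden clusters (leidenalg 0.10.2), other scalings and folds. Some results are not reported here.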

Additional observations from a re-analysis of the deposited data

Results flagged for a closer look

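The direction of the Ctsd ratio of KO over WT differed between cell classes. On the log2 scale Ctsd was past the fold (log2 0.32) upwards in monocyte-like (0.47), cDC1-like (0.95), cDC2-like (0.74), CD4 T-like (0.90) and melanoma-like cells (0.40) and past it downwards in plasmacytoid DC-like cells (-0.52). The difference between classes was not tested, because each genotype has 1 library. Without the cell that held most Ctsd UMIs in each library the plasmacytoid DC-like value was -0.17 and the cDC1-like value -0.00 (-0.0007715), and with each cell thinned to 1000 UMIs the plasmacytoid DC-like value was 0.28. The direction of Ctsh differed between granulocyte-like cells (0.94) and cDC1-like (-0.73), CD8 T-like (-0.71) and NK-like cells (-2.34), which was not tested either. With Leiden clusters the granulocyte-like value was 0.20, and when thinned the CD8 T-like value was 0.38.

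Other members also differed in direction between classes, and none of these differences was tested. Ctsa was -0.56 in CD8 T-like cells, against 0.88 in granulocyte-like cells. Ctsb was -0.48 in NK-like cells, against 0.56 in monocyte-like, 0.36 in granulocyte-like, 0.48 in cDC1-like, 0.37 in cDC2-like and 0.95 in CD4 T-like cells, and the NK-like value was 0.13 with doublets kept. The granulocyte-like value was -0.00 (-0.003125) with equal weight per cell and the cDC1-like value -0.36 with Leiden clusters. Ctsc was -0.55 in CD8 T-like and -1.22 in NK-like cells, against 0.46 in granulocyte-like, 0.52 in cDC1-like and 0.80 in CD4 T-like cells. When thinned its NK-like value was -0.00 (-0.004573) and its CD4 T-like value -1.42, and the granulocyte-like value was -0.01 (-0.006705) with equal weight. Ctss was -0.38 in CD8 T-like and -1.64 in NK-like cells, against 0.77 in granulocyte-like and 0.56 in CD4 T-like cells. Its NK-like value was -0.01 (-0.00932) with Leiden clusters and its CD4 T-like value 0.04 with a further marker. In CD8 T-like cells the values of Ctsc and Ctss were 0.085 and 0.10 with doublets kept.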

How the results depend on the processing

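No paired analysis was possible because each genotype has 1 library. Of 863 alternative log2 ratios of members, or of their sum in classes other than macrophage-like and monocyte-like cells, 715 moved by less than the counting interval of the original value, 123 moved by more and 25 changed the sign of a ratio that had been past the fold. With ratios not past the fold included, 104 changed sign, 2 of them in macrophage-like and 6 in monocyte-like cells. The summed log2 ratio of macrophage-like cells (0.17) became 0.16 (0.1645) with doublets kept, 0.20 (0.2032) with equal weight per cell, 0.20 (0.2025) when thinned, 0.18 with a further marker, 0.16 (0.1647) without mitochondrial, ribosomal protein and haemoglobin genes and 0.21 with Leiden clusters. That of monocyte-like cells (0.30) became 0.27 (0.2725) with equal weight, 0.27 (0.268) when thinned, 0.26 (0.2635) without those genes, 0.26 (0.2611) with median-of-ratios scaling and 0.25 with Leiden clusters. Members higher past the fold in macrophage-like cells (1) became 0 with a further marker or a fold of 1.5, and 2 at 10 CPM or more or with no CPM filter, since Ctsk then entered. In monocyte-like cells (4) they became 0 at a fold of 1.5 and 1 with Leiden clusters. They became 3 with median-of-ratios scaling or without mitochondrial, ribosomal protein and haemoglobin genes, and 5 at 10 CPM or more or with no CPM filter. Of ratios past the fold, those that changed sign were, with Leiden clusters, Ctsa -0.00 (-0.002663), Ctsb -0.36 and Ctsd -0.26 in cDC1-like and Ctsl -0.49 in cDC2-like, -0.11 in CD8 T-like and 0.17 in NK-like cells. With equal weight they were Ctsb -0.00 (-0.003125) and Ctsc -0.01 (-0.006705) in granulocyte-like and Ctsl -0.19 in cDC2-like and Ctsz 0.32 in NK-like cells, and when thinned, Ctsl -1.18 in cDC2-like, Ctsd 0.28 in plasmacytoid DC-like, Ctsc -1.42 in CD4 T-like and Ctsh 0.38 in CD8 T-like cells. Without the top cell, an alternative chosen after seeing the data, they were Ctsd -0.00 (-0.0007715) in cDC1-like and Ctsl -0.26 in cDC2-like cells. With a further marker they were Ctsa -0.24 and Ctsw -0.19 in NK-like and Ctsc -0.15 and Ctsw -0.04 (-0.04499) in CD4 T-like cells, and with doublets kept, Ctsb 0.13, Ctsl 0.33 and Ctsz 0.23 in NK-like and Ctsc 0.085 and Ctss 0.10 in CD8 T-like cells. Leiden clusters gave no CD4 T-like ratio. Apart from the top-cell alternative, the cause was not tested. A class of 100 cells or fewer limits what a single-member ratio can show at this depth.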
